A study of Saccharomyces cerevisiae with 2 samples.

Results

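The mitochondrial tRNA genes with a value in both yeast strains numbered 8 of the 252 tRNA genes listed in the small-RNAseq tables. They were chosen by their measured values, as genes on the mitochondrial chromosome listed with more than 0.1 FPKM (fragments mapped to a gene, scaled to its length and to the library, in data that the study normalized to added RNA spike-in standards) in both the cdk1-as1 and the WT library. The other 5 listed mitochondrial tRNA genes had a value in 1 library only, and 11 of the 24 annotated mitochondrial tRNA genes were not listed. The values compared tRNA between cdk1-as1 mutants and WT cells of Saccharomyces cerevisiae, the budding yeast, in a study that asked whether the cell-cycle kinase Cdk1 promotes tRNA synthesis. The study set mitochondrial tRNAs aside, because its earlier ChIP-seq data had not mapped them, and drew no conclusion on them. It also states that tRNA modifications may impair sequencing, so that its data likely favor newly made, unmodified tRNA. The cdk1-as1 strain carried an analog-sensitive CDK1 allele, a phenylalanine-to-glycine change in the ATP pocket that lets a bulky inhibitor bind and that by itself lowers kinase activity. The WT strain carried the unmodified CDK1 gene. Cells of both strains were arrested with the mating pheromone α-factor, released into rich medium and harvested in S phase as judged by microscopy. The study states that flow cytometry also showed the sequenced cells to be in S phase. The labels name release media with and without nocodazole but not which was used. The study left out the inhibitor 1-NM-PP1 in its synchronized time courses of cdk1-as1, and names none for the sequenced cultures. There was 1 library per strain, so no difference below has a replicate check, no p-value could be given, and every interval covers counting error only.

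Mitochondrial tRNAs are made by another machinery than the tRNAs of the cytoplasm. The mitochondrial RNA polymerase Rpo41, with its partner Mtf1, transcribes them from the mitochondrial genome as parts of long precursors, whereas RNA polymerase III transcribes the nuclear tRNA genes. Mitochondrial RNase P cuts the precursor at the start of each tRNA, the endonuclease Trz1 cuts it at the end, and the CCA tail is added afterwards. The mature tRNAs serve the translation, inside the organelle, of the few proteins the mitochondrial genome encodes. Among them are subunits of the respiratory chain and of ATP synthase and the ribosomal protein Var1.

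The tRNA genes on which the values below turned are shown as RefSeq gives their DNA in the sacCer3 build, each on the plus strand and with the anticodon in capitals. The AGY-reading serine tRNA gene, tS(GCU)Q1 at chrM:69203-69288, held the largest count of the 8 in both libraries. The gene tR(ACG)Q2 at chrM:69289-69362 began on the next base and was listed in WT only. The UCN-reading serine tRNA gene tS(UGA)Q2 lay at chrM:48201-48290, the glutamine tRNA gene tQ(UUG)Q at chrM:66210-66285 and the aspartate tRNA gene tD(GUC)Q at chrM:68322-68396, and these had the widest count ratios between the strains among the 8.
tS(GCU)Q1: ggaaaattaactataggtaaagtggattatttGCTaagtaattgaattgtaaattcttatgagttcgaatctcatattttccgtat
tR(ACG)Q2: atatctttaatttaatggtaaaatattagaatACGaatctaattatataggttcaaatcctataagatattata
tS(UGA)Q2: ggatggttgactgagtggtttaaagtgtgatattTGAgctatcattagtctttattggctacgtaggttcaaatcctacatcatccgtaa
tQ(UUG)Q: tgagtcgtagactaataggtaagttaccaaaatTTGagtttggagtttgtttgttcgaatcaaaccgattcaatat
tD(GUC)Q: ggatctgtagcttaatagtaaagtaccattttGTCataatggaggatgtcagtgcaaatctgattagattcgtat

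Few counts fell on tRNA genes. The estimated counts over all listed tRNA genes summed to 1570 in cdk1-as1 (95% exact Poisson interval 1493 to 1650) and 2952 in WT (2846 to 3060), and 207 genes were listed in cdk1-as1 against 244 in WT. Nuclear tRNA genes held 1505 counts in cdk1-as1, which was 52.1% of the 2887.5 counts in WT. All 252 listed genes matched an annotated tRNA gene in position and length, and the names of all 13 mitochondrial genes were those of the annotation.

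The 8 mitochondrial genes together held about as many counts in cdk1-as1 as in WT. Their counts summed to 64.3 in cdk1-as1 (95% exact Poisson interval 49.3 to 81.7) and 60.1 in WT (45.8 to 77.2), a log2 ratio of 0.10 with a 95% Clopper-Pearson interval of -0.44 to 0.63. Counts were taken as deposited, with no scaling to sequencing depth or spike-in standards. Every interval of a count ratio, here and below, therefore takes the libraries as equal in depth. Each such interval was made from rounded counts, whereas the ratio itself was taken from the unrounded ones. In FPKM the sum was 132001 in cdk1-as1 and 177480.4 in WT, a log2 ratio of -0.43, so the direction of the sum differed between the deposited measures. In bulk RNA, fewer mitochondria per cell and less tRNA per mitochondrion cannot be told apart.

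As a share of the values summed over all listed tRNA genes, not over the whole library, the mitochondrial genes took more in cdk1-as1. They held 4.10% of the counts in cdk1-as1 (95% Clopper-Pearson interval 3.15 to 5.18) and 2.04% in WT (1.55 to 2.61), and 2.99% of the summed FPKM in cdk1-as1 against 1.67% in WT. A single gene carried most of this difference. Without tS(GCU)Q1, the other 7 genes held 1.74% of the counts in cdk1-as1 (1.14 to 2.49) and 1.33% in WT (0.94 to 1.80), and 0.907% of the FPKM in cdk1-as1 against 1.06% in WT. A share depends also on the nuclear genes, whose summed counts were lower in cdk1-as1.

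**Figure D1:**
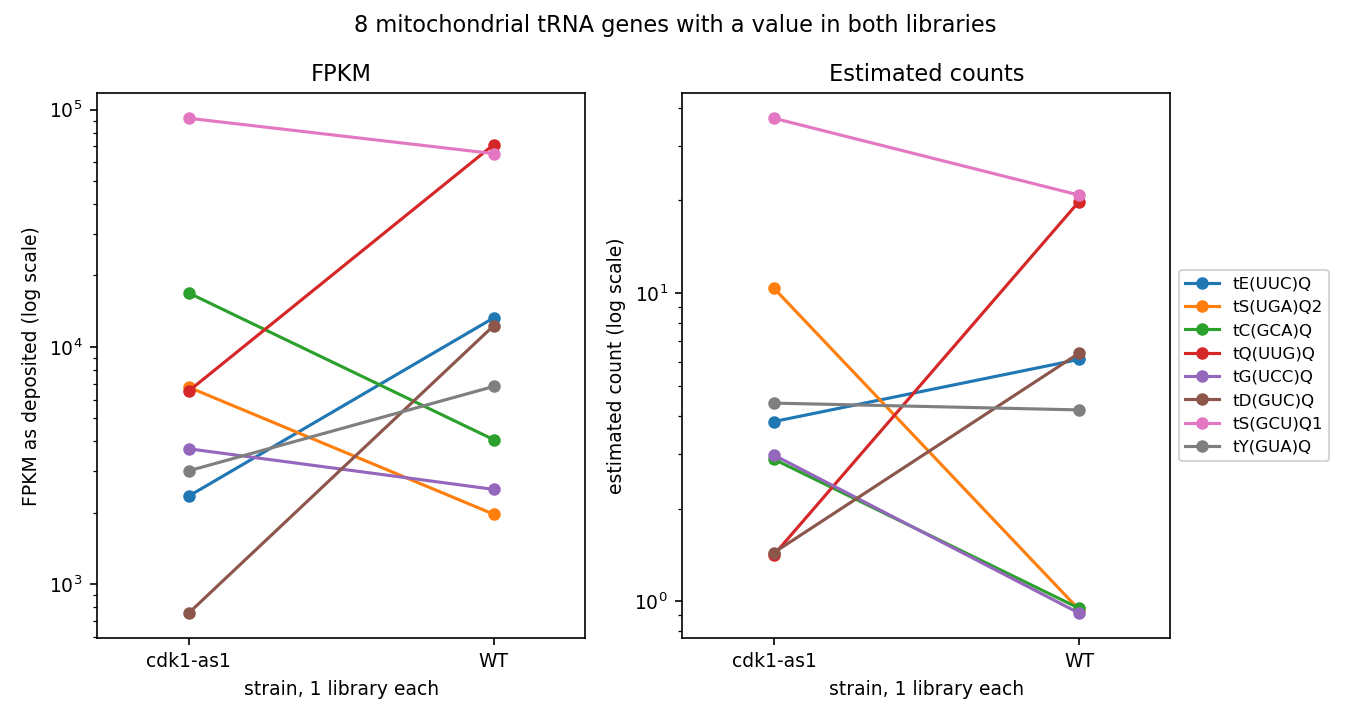
FPKM (left panel) and estimated counts (right panel) of the 8 mitochondrial tRNA genes on log axes, with cdk1-as1 left of WT, 1 point per library, a line joining the points of a gene, and no error bars because there was 1 library per strain. By FPKM tS(GCU)Q1 was the highest in cdk1-as1 at 92013 and tQ(UUG)Q the highest in WT at 71282, whereas by count tS(GCU)Q1 was the highest in both, at 37.0 in cdk1-as1 and 20.8 in WT.

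Both serine tRNA genes were higher in cdk1-as1 in FPKM and in counts. tS(GCU)Q1, whose tRNA reads the AGY serine codons, had 92013 FPKM and 37.0 counts in cdk1-as1, against 65285 FPKM and 20.8 counts in WT. It was the seventh of the genes listed in cdk1-as1 by FPKM and the forty-sixth of those in WT. Its log2 FPKM ratio was 0.50 and its log2 count ratio 0.83, with an interval of 0.0068 to 1.66 that only just left out 0. tS(UGA)Q2, whose tRNA reads the UCN codons, had 6764 FPKM and 10.4 counts in cdk1-as1, against 1971.5 FPKM and 0.941 counts in WT. Its log2 count ratio of 3.46 had an interval of 0.51 to 8.76, which is wide because the WT count was so low.

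The glutamine and aspartate tRNA genes were lower in cdk1-as1 under both measures. tQ(UUG)Q, whose tRNA is charged with glutamate and then converted to the glutamine form by an amidotransferase, had 6515 FPKM and 1.42 counts in cdk1-as1, against 71282 FPKM and 19.8 counts in WT. The FPKM was 10.9-fold lower, and the log2 count ratio of -3.81 had an interval of -9.70 to -1.68, the only interval of the 8 wholly below 0. tD(GUC)Q, which reads the aspartate codons, had 755 FPKM and 1.44 counts in cdk1-as1, against 12295 FPKM and 6.39 counts in WT. Its FPKM was 16.3-fold lower, the widest FPKM difference of the 8, yet its log2 count ratio of -2.15 had an interval of -8.11 to 0.46 that spans 0.

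The remaining genes rested on fewer than 7 counts in each library, and each count interval spanned 0. tE(UUC)Q, the glutamate tRNA gene, had 2349.96 FPKM and 3.83 counts in cdk1-as1, against 13259.9 FPKM and 6.10 counts in WT. tY(GUA)Q, the tyrosine tRNA gene, had 3004 FPKM and 4.40 counts in cdk1-as1, against 6814 FPKM and 4.18 counts in WT, so that it was lower by FPKM and near equal by count. For these genes the direction turned with the scaling, for tY(GUA)Q in counts or with equal library totals and for tE(UUC)Q only in counts with equal library totals. Here and below, a library total is the sum over all listed tRNA genes. tC(GCA)Q, the cysteine tRNA gene, had 16879 FPKM and 2.89 counts in cdk1-as1, against 4064 FPKM and 0.950 counts in WT. tG(UCC)Q, the glycine tRNA gene, had 3720.3 FPKM and 2.98 counts in cdk1-as1, against 2509 FPKM and 0.916 counts in WT. A difference in these genes was not detectable at these counts.

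By FPKM, 4 of the 8 genes were lower in cdk1-as1, beside 89.4% of the 199 tRNA genes measured in each strain. All of these 4 were at least 2-fold lower, beside 66.3% of the 199, and 2 of the 8 were at least 2-fold higher, beside 5.53%. By count, 3 of the 8 were lower, beside 80.9%. The rule that chose the 8 used these same libraries, and nothing further is read from these shares. The median log2 FPKM ratio was -0.34 over the 8 and -1.48 over all 199, and the median log2 count ratio was 0.45 over the 8 and -1.62 over all 199. How the spike-in standards entered the FPKM could not be read from the files, and setting the library totals equal removes any difference in total tRNA that they were added to keep. Equal totals raised every log2 ratio by 1.27 in FPKM and by 0.91 in counts, after which 3 of the 8 were lower in FPKM and 2 in counts.

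**Figure D2:**
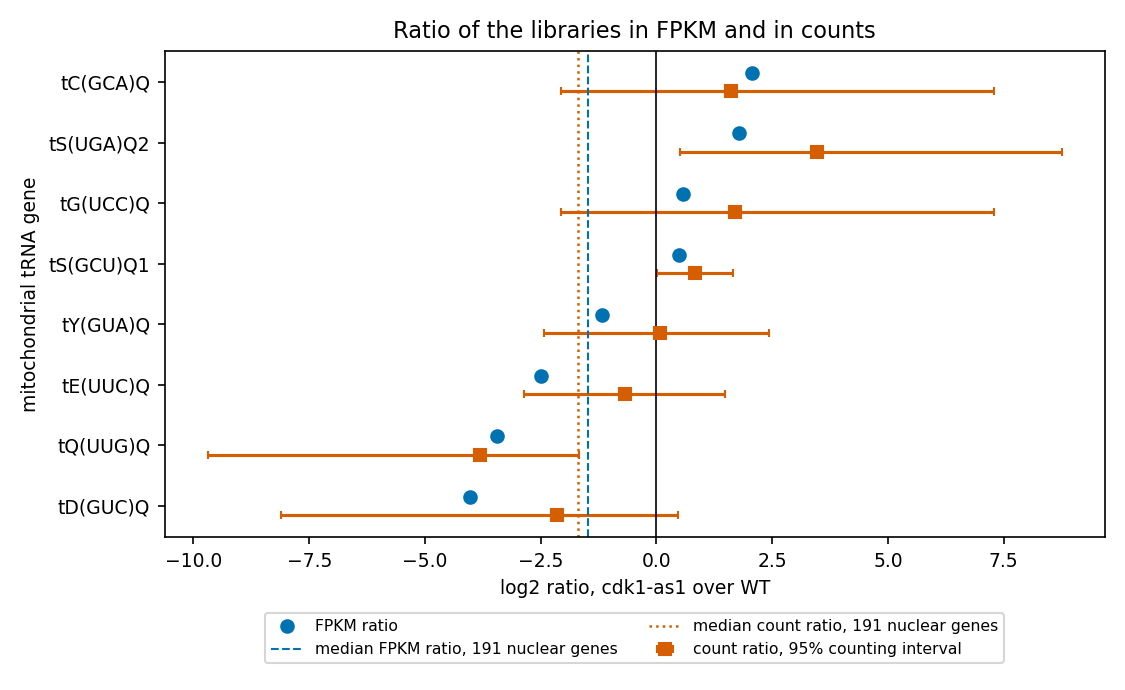
Log2 ratio of cdk1-as1 to WT for each of the 8 genes, in FPKM (circles) and in estimated counts (squares). Bars give the 95% Clopper-Pearson interval, which covers counting error only and takes the libraries as equal in depth. Vertical lines mark the medians of the 191 nuclear genes with both values, at -1.48 in FPKM and -1.69 in counts. The interval lay above 0 for tS(GCU)Q1 and tS(UGA)Q2, below 0 for tQ(UUG)Q, and across 0 for the other 5, among them tY(GUA)Q and tE(UUC)Q, whose direction turned with the scaling.

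FPKM and counts gave different sizes because the FPKM assigned to 1 count differed from gene to gene and between the libraries. The median over the 8 genes was 965 FPKM per count in cdk1-as1 and 2456 in WT. Among the 73 nuclear genes with at least 10 counts in a library, the lowest value was 1385 FPKM per count in cdk1-as1 and 1890 in WT, and 5 of the 8 mitochondrial genes lay below it in cdk1-as1 against 1 in WT. Both of these lowest nuclear values were those of tI(UAU)D, a gene of 133 nt. FPKM is scaled to gene length, and the 8 mitochondrial genes were 72 to 90 nt long. Nuclear genes with fewer counts also lay below 1385 in cdk1-as1. Over all listed nuclear genes the lowest value was 179 FPKM per count in cdk1-as1 and 1890 in WT. The FPKM ratio was below the count ratio for 6 of the 8 genes. By construction, the FPKM ratio of a gene is its count ratio times its ratio of FPKM per count. Beyond gene length, which enters FPKM by definition, what made the FPKM per count differ was not tested.

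**Figure D3:**
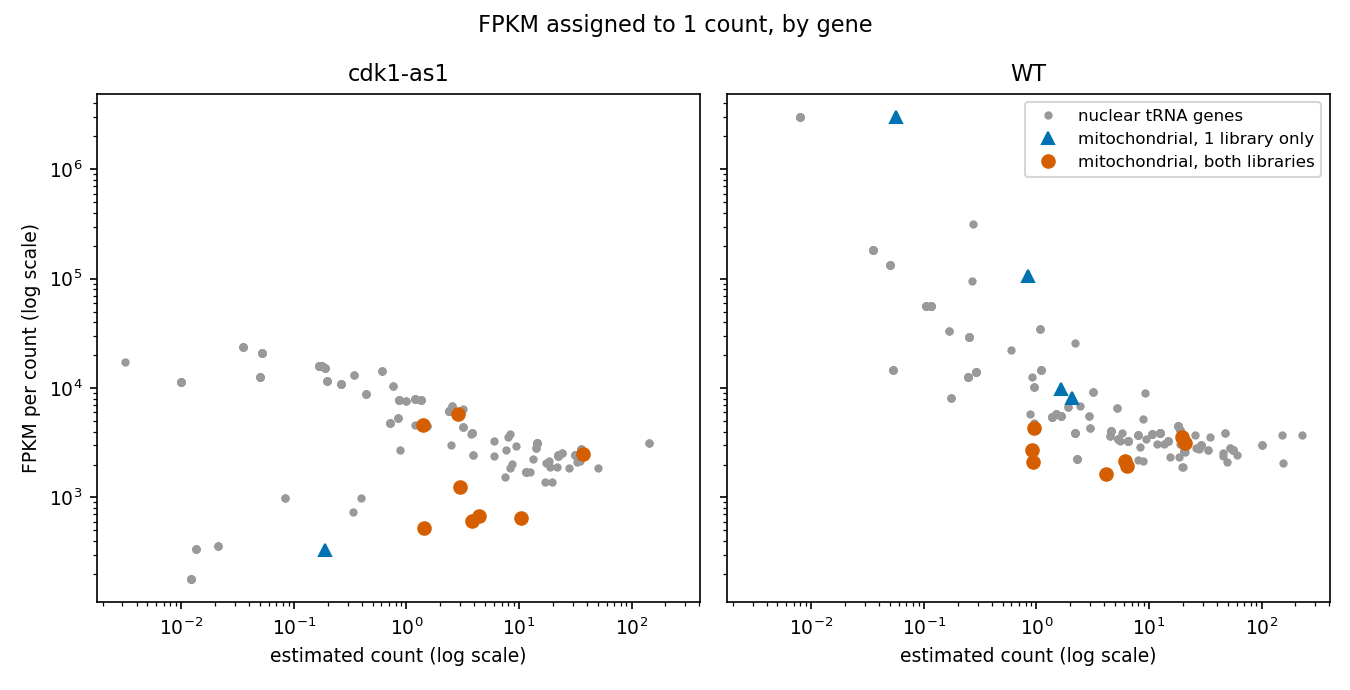
FPKM per estimated count (vertical) against the estimated count (horizontal), both on log axes, for cdk1-as1 (left) and WT (right), with 1 point per tRNA gene: nuclear genes in grey, mitochondrial genes with both values as circles and those listed in 1 library as triangles. Among the circles tD(GUC)Q was the lowest in cdk1-as1, at 524 FPKM per count, and tY(GUA)Q the lowest in WT, at 1629.

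Nuclear tRNA genes for the same amino acid gave a second comparison, and the mitochondrial genes did not follow them uniformly. Of the 7 members with a nuclear counterpart in both libraries, 3 had a log2 FPKM ratio above the nuclear median and 5 had a log2 count ratio above it. tS(GCU)Q1 and tS(UGA)Q2 lay 1.85 and 3.14 above the nuclear serine median of -1.36, over 16 genes of which 15 were lower. The exception, tS(UGA)P, has the anticodon of tS(UGA)Q2. Its log2 FPKM ratio was 2.65, beside 1.78 for tS(UGA)Q2, and its counts were 8.01 in cdk1-as1 and 0.953 in WT. The other 2 nuclear tS(UGA) genes were lower in cdk1-as1. tG(UCC)Q lay 6.64 above a glycine median of -6.07 that rests on 3 nuclear genes with 2 distinct values. That median is the value of tG(UCC)N and tG(UCC)O, each with only 0.083 counts in cdk1-as1 and 0.166 in WT. In counts tG(UCC)Q lay 2.71 above the nuclear glycine median. tD(GUC)Q had a log2 FPKM ratio that differed by -2.33 from the aspartate median of -1.70, but a log2 count ratio 0.23 above the nuclear median in counts. No nuclear cysteine tRNA gene had a value in both libraries.

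With the same anticodon, the serine gene was set against its nuclear partners directly. tS(GCU)Q1 had 92013 FPKM in cdk1-as1, beside 89612 FPKM summed over the 2 nuclear tS(GCU) genes, and 65285 FPKM in WT, beside 165252 over those nuclear genes. The nuclear pair was thus lower in cdk1-as1 while the mitochondrial gene was higher. For glutamine, tQ(UUG)Q had 6515 FPKM in cdk1-as1, beside 24148 FPKM over its 7 nuclear counterparts, and 71282 FPKM in WT, beside 77741. Here the mitochondrial and the summed nuclear values were both lower in cdk1-as1, although only 4 of the 7 nuclear genes were lower and the other 3 were higher, each at a log2 FPKM ratio of 1.01. The 7 nuclear genes hold 2 distinct values. Each of the 3 that were higher by FPKM rested on 0.179 counts in cdk1-as1 and 0.173 in WT, a log2 count ratio of 0.0485.

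**Figure D4:**
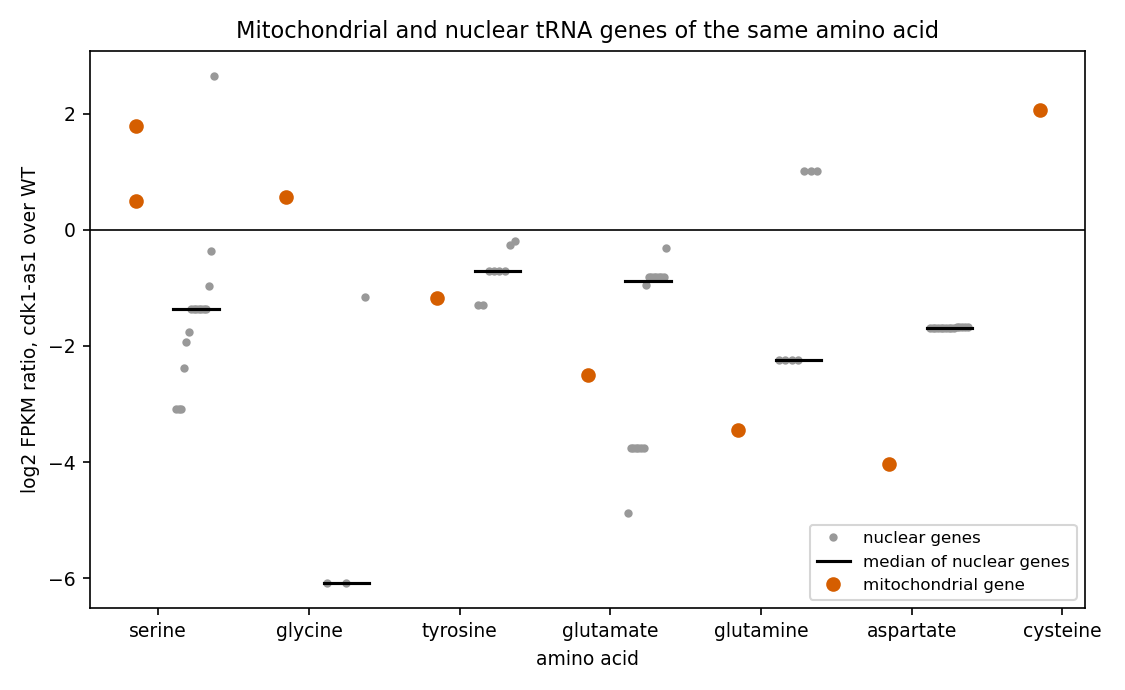
Log2 FPKM ratio of cdk1-as1 to WT for each of the 8 mitochondrial tRNA genes (circles), by amino acid, beside the nuclear genes of that amino acid (grey points) and their median (black bar). The serine genes and tG(UCC)Q lay above their nuclear medians in FPKM, and tD(GUC)Q, tE(UUC)Q, tQ(UUG)Q and tY(GUA)Q below, of which tD(GUC)Q and tY(GUA)Q lay above them in counts.

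The genes share features that the rule did not use. All 8 lie on the plus strand, as do 23 of the 24 annotated mitochondrial tRNA genes, and 6 of the 8 lie in the run of 16 tRNA genes between the 21S rRNA gene and COX2. Only tE(UUC)Q and tS(UGA)Q2 lie outside it. The members were 72 to 90 nt long, with a GC content of 26.7% to 40.5% (median 33.8%), against 17.1% for the mitochondrial genome. The longest exact run that a member shared with the nuclear genome, on either strand, was 15 to 16 nt. The other mitochondrial tRNA genes were much alike. The unlisted genes were 72 to 85 nt long, with a GC content of 20.3% to 44.4% (median 30.7%). The genes listed in 1 library were 71 to 78 nt long, with 17.6% to 36.6% (median 32.9%). In both groups the longest shared run was 14 to 16 nt, so these features do not set the 8 apart.

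By length, in a split chosen after the values were seen, the sums ran in opposite directions but the single genes did not all follow them. The 3 genes of 84 nt or longer, the serine and tyrosine genes, summed to 51.8 counts in cdk1-as1 and 25.9 in WT. The 5 shorter genes summed to 12.6 counts in cdk1-as1 and 34.2 in WT. tS(GCU)Q1 supplied 37.0 of the counts of the longer genes in cdk1-as1, and tQ(UUG)Q 19.8 of those of the shorter genes in WT. Of the shorter genes, tC(GCA)Q and tG(UCC)Q were higher in cdk1-as1 in both measures, and the longer tY(GUA)Q was lower by FPKM, with a direction that turned in counts and with equal library totals.

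The nonanucleotide ATATAAGTA, the core of the yeast mitochondrial promoter, was searched on both strands. It occurred 14 times in the 85779 nt mitochondrial genome. It lay within 500 nt upstream of 1 member, tE(UUC)Q, at 495 nt, and of 2 of the 24 annotated mitochondrial tRNA genes (8.33%), against 3 of 275 annotated nuclear tRNA genes (1.09%). For the members the nearest upstream match was 495 to 6415 nt away, with a median of 2511 nt.

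Along the gene order the direction was mixed. Of the 3 members whose count interval left out 0, tS(UGA)Q2 comes first and was higher in cdk1-as1, tQ(UUG)Q follows and was lower, and tS(GCU)Q1 comes last and was higher, in both measures and with equal library totals. tC(GCA)Q, the member next to tS(UGA)Q2, was higher as well, with an interval that spans 0. tR(ACG)Q2 follows tS(GCU)Q1 with a gap of 0 nt, and it had 16296 FPKM from 1.65 counts in WT and no listing in cdk1-as1, although tS(GCU)Q1 had its higher value in cdk1-as1.

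**Figure D5:**
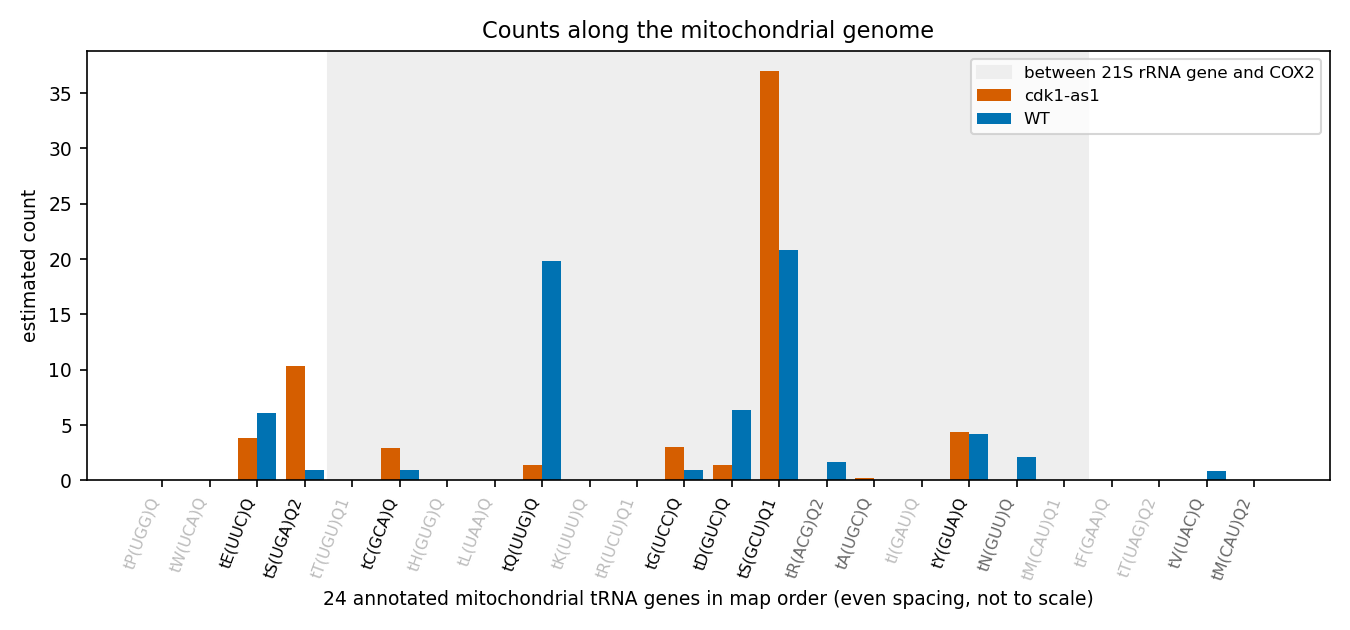
Estimated counts (bars from 0, cdk1-as1 left of WT) for the 24 annotated mitochondrial tRNA genes in map order, evenly spaced and not to scale, with the run between the 21S rRNA gene and COX2 shaded and genes that were not listed without a bar. tS(GCU)Q1, at 37.0 counts in cdk1-as1 and 20.8 in WT, stands next to tR(ACG)Q2, which had 1.65 counts in WT and was not listed in cdk1-as1.

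The 5 genes listed in 1 library rested on very few counts. In WT only, tN(GUU)Q, the asparagine tRNA gene, had 16767 FPKM from 2.09 counts, and tV(UAC)Q, the valine tRNA gene, had 89469 FPKM from 0.849 counts. tM(CAU)Q2, the gene of the initiator formylmethionine tRNA, had 170664 FPKM in WT from 0.0563 counts, which put it ninth in WT by FPKM on less than a single count. In cdk1-as1 only, tA(UGC)Q, the alanine tRNA gene, had 62.7 FPKM from 0.190 counts. It was left out of the 8, as were the WT-only genes, because the other library did not list it and not because its own value was below 0.1 FPKM. The lowest value among the 8 was the 755 FPKM of tD(GUC)Q in cdk1-as1. Adding these genes changed the FPKM share of mitochondrial genes to 3.00% in cdk1-as1 and 4.43% in WT, while their counts summed to 64.5 in cdk1-as1 and 64.8 in WT. The direction of the FPKM share thus turned on WT genes with at most 2.09 counts.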

How the data were processed

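Small RNA from 1 cdk1-as1 and 1 WT culture was sequenced. The authors deposited, per gene, estimated counts (expected counts, not whole) and FPKM for each strain, in the sacCer3 build, and a side-by-side table of RPKM that the authors set to 0.1 where a gene was absent. The deposited RPKM equalled the FPKM. The study normalized its reads to ERCC spike-in standards, and how these entered the FPKM is unknown. For the aligner and the counter: not given in the sources used here. The table's fold change and FDR columns hold the authors' own comparison and were not used, nor were 2 columns of log10 values. 1 misprinted name was corrected. Log2 ratios of cdk1-as1 to WT were taken with no pseudocount. With 1 library per strain no test was made and no gene was filtered. Exact Poisson and Clopper-Pearson intervals (95%) treat rounded counts as fragments, an assumption that could not be checked. All genes of the rule are named. Alternatives were pseudocounts of 1, 100 and 1000, a minimum of 10 counts, no filter, counts, equal totals and identical copies merged. Members and lists were chosen with earlier results of these data known. Python 3.11.15, pandas 2.3.3, numpy 2.4.6, scipy 1.17.1 and matplotlib 3.10.9 were used. The script was checked on simulated whole counts drawn well above the deposited counts. That check does not cover intervals at counts as low as those here.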

Additional observations from a re-analysis of the deposited data

How the results depend on the processing

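No paired analysis was possible because each strain has 1 library and the labels carry no replicate numbers, and for the same reason no library could be left out. Pseudocounts of 1, 100 and 1000 and the side-by-side table moved no result past its limit. The values below are, over the mitochondrial genes, the number lower in cdk1-as1, the median log2 ratio, the log2 ratio of the sums and the median minus the nuclear median. They are also the share of the sum over listed tRNA genes and the number above the nuclear median of the same amino acid. With at least 10 counts in 1 or both libraries, 3 genes remained and 1 gene was lower. Of the 3, tS(UGA)Q2 and tQ(UUG)Q passed only through the library where each was high. The median of 0.50 was the single value of tS(GCU)Q1, and the difference of medians was 1.94. With every listed mitochondrial gene and absent values at 0.1, 8 were lower, the median was -2.50, the sum -1.83, the difference of medians -0.84 and the WT share 4.43%. In estimated counts the median was 0.45, the sum 0.10, the difference 2.14, the cdk1-as1 share 4.10%, the number above the same amino acid 5 and the log2 ratio of tY(GUA)Q 0.073. With equal FPKM totals the median was 0.93, the sum 0.84 and the log2 ratio of tY(GUA)Q 0.088, and with equal nuclear FPKM they were 0.90, 0.82 and 0.067. With identical nuclear copies taken as 1 gene, the shares were 5.26% in cdk1-as1 and 3.14% in WT. The remaining alternatives were chosen after seeing the data. With counts scaled to equal totals, 2 genes were lower, the median was 1.36, the sum 1.01, the difference 2.14, the share 4.10%, the number above the same amino acid 5, tE(UUC)Q 0.24 and tY(GUA)Q 0.98. Without tS(GCU)Q1 the median was -1.18, the sum -1.49, the difference 0.30 and the shares 0.907% in cdk1-as1 and 1.06% in WT. Apart from the equal totals and equal nuclear FPKM, whose construction adds a constant, the cause of these changes was not tested. Low counts limit the values of single genes, and 7 of the 13 listed mitochondrial genes had fewer than 3 counts in both libraries.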
